A study of Mus musculus with 4 samples.

Results

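Of 22180 genes measured in BR5FVB1-Akt cells, 10 are the cytokine genes Il1a, Il1b, Il1rn, Il33, Il6, Il11, Lif, Csf1, Csf2 and Il34, which belong to the interleukin-1 family, the interleukin-6 family and the colony-stimulating factors. They were taken by name, each as the probe row with that single gene symbol in the platform annotation, and all 10 had such a row. BR5FVB1-Akt is a mouse cell line whose tissue is given as ovarian cancer, and all samples were grown in the same serum-containing medium. A group of 2 samples was left without drug, and a group of 2 received 10 uM decitabine for 72 h. Decitabine is a cytidine analogue that enters replicating DNA and traps DNA methyltransferases there. Total RNA of each sample was hybridised to 1 Affymetrix Mouse Gene 2.0 ST array, and the values are deposited expression summaries read as log2, a scale inferred from their range. The treatment text of the labels names the drug for all 4 samples, so the groups rest on the sample titles and source names. Samples of a group are called biological replicates, and nothing says whether they came from separate cultures, so the p-values measure only the spread between these arrays.

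Interleukin-1 alpha and interleukin-1 beta signal through the receptor made of Il1r1 and Il1rap products, which recruits MyD88 and IRAK kinases and activates NF-kB and AP-1. Interleukin-1 alpha is made by many epithelial cells and acts when released or on the cell surface, whereas interleukin-1 beta needs cleavage by an inflammasome and is chiefly a myeloid product. Members of the interleukin-6 family share the signalling chain gp130, encoded by Il6st, and activate JAK kinases and STAT3. The factors encoded by Csf1 and Il34 share a receptor on macrophages, and many tumour cells secrete such factors.

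None of the 10 cytokine genes passed the test over all genes (limma without an intensity trend, Benjamini-Hochberg adjusted p under 0.05), where the share called over all genes was 0.144%. The largest difference was in Il1a, 2.07-fold higher with decitabine, followed by Lif at 1.56-fold, Il6 at 1.47-fold, Il11 at 1.45-fold and Csf1 at 1.35-fold, while Il34 was 1.43-fold lower. At a nominal (unadjusted) p under 0.05, 4 members were higher (Il1a, Lif, Csf1 and Il6), against 7.34% of all genes, and Il34 alone was lower, against 6.97%. Both decitabine arrays lay above both control arrays for 6 members, against 23.4% of all genes, and below them for Il1b and Il34, against 22.5%. The median log2 fold change of the 10 was 0.36, beside 0.0040 over all genes, and 7 of the 10 were positive. The members were chosen with earlier results of these data known, so their contrast with all genes is no independent evidence of a direction. With 2 arrays against 2, an exact two-sided permutation test of a single gene cannot give a p below 0.333. Each p here comes from limma, which combines the gene's own spread with the spread shared across genes. In bulk RNA, fewer cells of a type and less RNA per cell cannot be told apart.

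**Figure D1:**
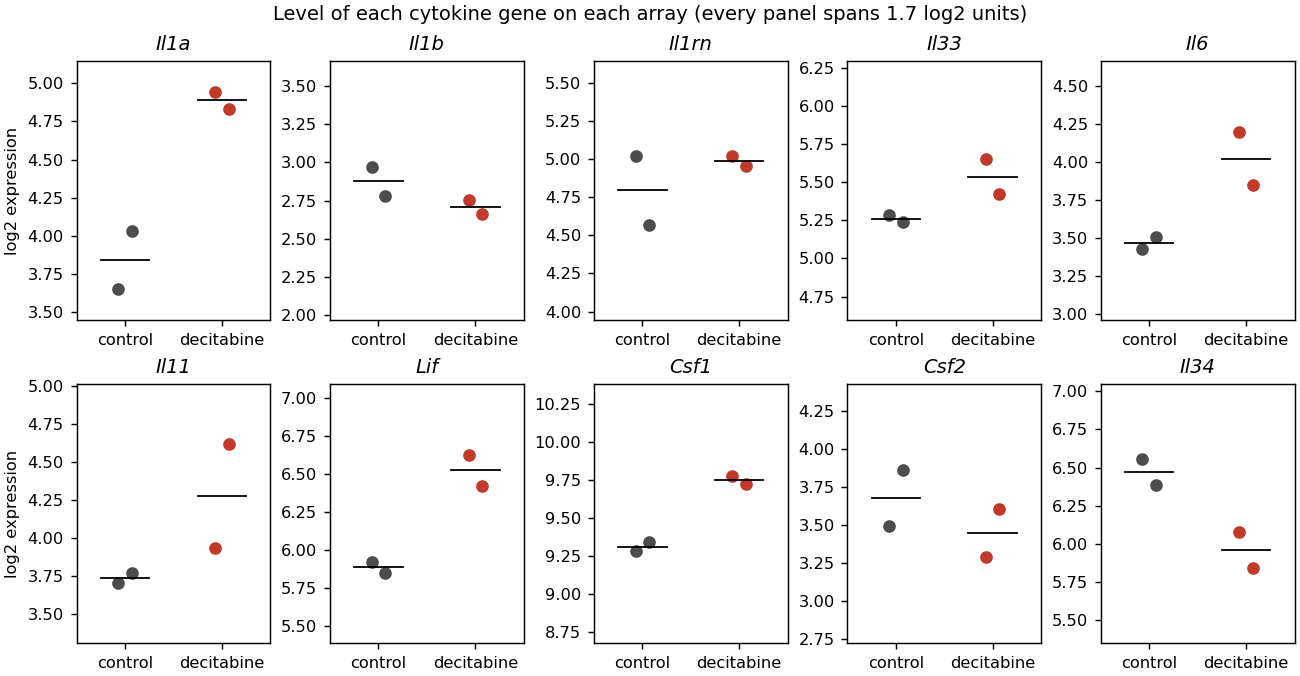
Each panel plots 1 cytokine gene, with the log2 expression of the 2 control arrays (grey) and the 2 decitabine arrays (red) as points and the group mean as a line. All panels span the same 1.7 log2 units, and the groups overlap only for Il1rn and Csf2.

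The promoter sequences of 5 members are shown, because 4 of them (Il1a, Il6, Lif and Csf1) had the smallest p-values among the members that were higher, and the fifth, Il1b, is the next coding gene to Il1a on chromosome 2 and was not higher. RefSeq windows of build GRCm38.p6 were found for 9 of the 10 members, 13 windows in all since some genes have several start sites, and none was matched for Il34. Each sequence below is the 250 bases before the annotated start site, 5′ to 3′ on the gene's strand, and capitals mark matches to the AP-1 heptamer TGANTCA or to the NF-kB consensus.
Il1a, chr2:129309973-129310222, minus strand: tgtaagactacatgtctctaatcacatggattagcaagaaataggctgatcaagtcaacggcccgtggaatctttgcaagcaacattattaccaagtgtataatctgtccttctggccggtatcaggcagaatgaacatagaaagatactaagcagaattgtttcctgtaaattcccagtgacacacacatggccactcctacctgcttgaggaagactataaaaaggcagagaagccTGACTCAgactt
Il1b, chr2:129371140-129371389, minus strand: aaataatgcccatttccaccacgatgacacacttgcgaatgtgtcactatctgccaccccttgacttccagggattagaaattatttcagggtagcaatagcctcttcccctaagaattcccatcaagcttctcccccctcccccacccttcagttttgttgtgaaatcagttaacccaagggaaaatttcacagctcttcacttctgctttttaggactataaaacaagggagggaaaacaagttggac
Il6, chr5:30012864-30013113, plus strand: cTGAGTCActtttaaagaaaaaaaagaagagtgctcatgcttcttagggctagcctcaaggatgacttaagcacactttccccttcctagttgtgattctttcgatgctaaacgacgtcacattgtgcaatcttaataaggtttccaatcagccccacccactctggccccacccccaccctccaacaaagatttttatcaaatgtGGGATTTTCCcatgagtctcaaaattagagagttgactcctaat
Lif, chr11:4257318-4257567, plus strand: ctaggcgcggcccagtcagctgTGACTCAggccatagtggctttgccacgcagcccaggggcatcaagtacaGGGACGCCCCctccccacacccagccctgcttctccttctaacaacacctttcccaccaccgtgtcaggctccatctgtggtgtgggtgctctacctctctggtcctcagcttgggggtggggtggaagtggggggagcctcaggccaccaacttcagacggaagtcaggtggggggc
Csf1, chr3:107760470-107760719, minus strand: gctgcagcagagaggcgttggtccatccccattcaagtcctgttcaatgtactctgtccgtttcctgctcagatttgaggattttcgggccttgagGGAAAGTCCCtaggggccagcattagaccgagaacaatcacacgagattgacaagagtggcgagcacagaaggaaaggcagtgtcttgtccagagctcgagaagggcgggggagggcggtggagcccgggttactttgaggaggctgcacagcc
On both strands, TGANTCA was found once in each of 5 of the 13 windows, those of Il1a, Il6, Lif, 1 of the Il11 start sites and 1 of the Il1rn start sites. Of 32851 such windows of all genes, 6.75% held it. The match began 12 bases before the start in Il1a, 249 bases in Il6, 228 bases in Lif, 98 bases in Il11 and 141 bases in Il1rn. The NF-kB consensus was found in Il6, Lif and Csf1, beginning 44, 178 and 154 bases before the start, and in 7.25% of all windows. No 2 of these matches overlapped, and the printed Il1b window held neither motif. The STAT motif TTCNNNGAA was found in 0 of the 13 windows and in 7.02% of all windows, and the TATA motif TATAAA in 4, those of Il1a, Il1b and both Il33 start sites, and in 12.4% of all windows. CpG dinucleotides, the sites of DNA methylation, numbered 3 in the window of Il1a, 2 in Il1b, 3 in Il6, 6 in Lif and 10 in Csf1, beside a median of 6 over all windows. These matches describe letters in a window. Neither binding nor methylation was measured here.

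Among the interleukin-1 family, Il1a differed most. It read 3.65 and 4.03 in control cells and 4.94 and 4.83 with decitabine (log2 expression, probe row 17391554). Both decitabine arrays lay above both controls, with 0.80 between the nearest arrays of the groups and 0.38 between the control arrays. The log2 fold change was 1.05 ± 0.16 (SE, 2 arrays per group), with a 95% interval from 0.65 to 1.45 and an adjusted p of 0.11 in limma. By nominal p, Il1a ranked 211 of the 22180 genes. The Il1a control mean of 3.84 lay near the 25th percentile of gene levels (3.82), and no background level could be set. Il1b, its neighbour on the chromosome and the ligand that inflammasomes process, read 2.97 and 2.78 in control cells and 2.76 and 2.66 with decitabine. Its groups were parted by 0.02 only, less than the 0.19 between the control arrays, and the log2 fold change was −0.17 ± 0.12 (95% interval from −0.46 to 0.13, limma adjusted p = 0.58). Il1b lay at the 11.0th percentile of level over all genes, where a transcript that is present cannot be told from one that is absent, since no background level could be set.

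Il1rn encodes the antagonist that occupies the interleukin-1 receptor without signalling. Its control arrays read 5.02 and 4.57, farther apart than the group means, and its decitabine arrays 5.02 and 4.96. The difference was 0.19 ± 0.17 on the log2 scale (limma adjusted p = 0.679), and without control replicate 2 it was −0.035. Il33, an alarmin kept in the nucleus and released from damaged cells, read 5.28 and 5.24 without drug and 5.65 and 5.42 with it. The groups did not overlap, but the decitabine arrays differed from each other by 0.23, and the log2 fold change of 0.28 ± 0.12 did not pass (limma adjusted p = 0.392). For Il1b, Il1rn and Il33 the 95% intervals excluded a 2-fold difference in either direction. For Il1a the interval included it.

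Of the interleukin-6 family, Lif had the clearest separation. Lif, a cytokine of stem cell maintenance and implantation that acts through the Lifr product and gp130, read 5.92 and 5.85 in control cells and 6.63 and 6.42 with decitabine. The gap of 0.50 between the groups exceeded the distance within either group, 0.07 for control and 0.20 for decitabine. The log2 fold change was 0.64 ± 0.12 (95% interval from 0.34 to 0.94, limma adjusted p = 0.145), and Lif ranked 403 by nominal p. Il6, the founding member of the family and an inducer of the acute-phase response, read 3.43 and 3.50 without drug and 4.19 and 3.85 with it. Its decitabine arrays were 0.35 apart, beside a gap of 0.34 between the groups, and the log2 fold change was 0.55 ± 0.15 (95% interval from 0.18 to 0.93, limma adjusted p = 0.228). Il6 lay at the 23.8th percentile of level, and no background level could be set.

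Il11, a gp130 cytokine linked to fibrosis and to gastrointestinal tumours, differed mainly on 1 array. It read 3.71 and 3.77 in control cells, 3.93 on the first decitabine array and 4.62 on the second. The log2 fold change of 0.54 ± 0.24 (limma adjusted p = 0.394) became 0.20 with decitabine replicate 2 left out and 0.88 with decitabine replicate 1 left out. The 0.68 between its decitabine arrays compares with a median of 0.14 between those arrays over all genes, and a 90th percentile of 0.45.

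The colony-stimulating factors gave values on both sides of 0. Csf1, which drives the survival and growth of macrophages, read 9.28 and 9.34 in control cells and 9.77 and 9.72 with decitabine. Arrays of a group lay within 0.06 of each other, against 0.38 between the groups, and the log2 fold change was 0.44 ± 0.10 (95% interval from 0.19 to 0.69, limma adjusted p = 0.188). Il34, the other ligand of the macrophage receptor encoded by Csf1r, read 6.56 and 6.38 without drug and 6.07 and 5.84 with it. Its decitabine arrays lay below both controls, the opposite order to Csf1, with a log2 fold change of −0.51 ± 0.13 (95% interval from −0.85 to −0.18, limma adjusted p = 0.219). Csf2, which encodes the granulocyte-macrophage factor GM-CSF, read 3.49 and 3.86 in control cells and 3.29 and 3.61 with decitabine, with overlapping groups and a difference of −0.23 ± 0.18 (limma adjusted p = 0.639). A dimmer Csf2 row read 2.84 and 2.77 against 2.72 and 2.87, a difference of −0.01. The intervals of both Csf1 and Il34 excluded a 2-fold difference.

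**Figure D2:**
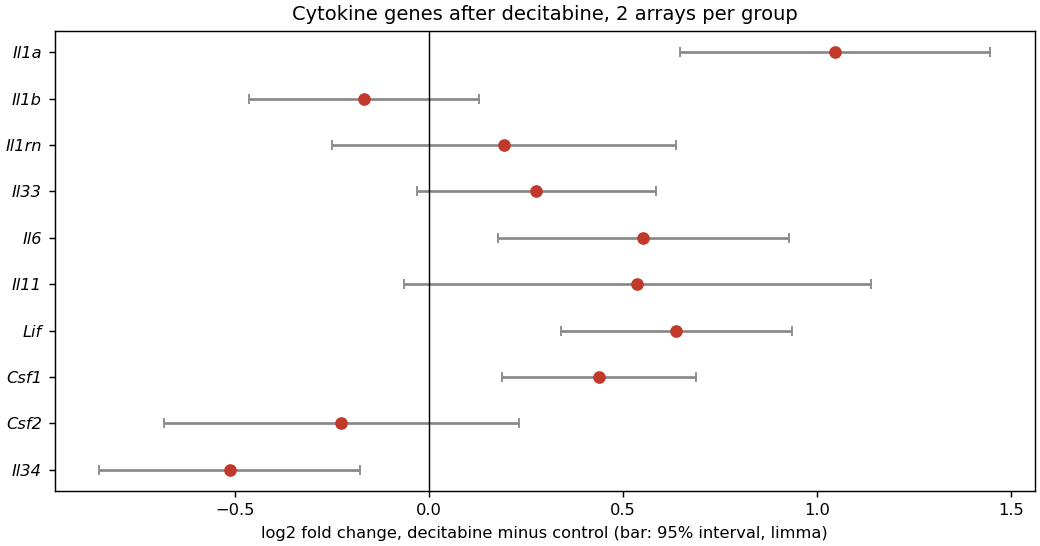
Points give the log2 fold change (decitabine minus control) of each cytokine gene and bars its 95% interval from limma, with 2 arrays per group. The intervals of Il1a, Il6, Lif and Csf1 lie above 0, that of Il34 lies below it, and the other 5 include 0.

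Whether a member passed depended on how the variance was modelled. When limma let the variance follow the level of expression (an intensity trend), 3 members passed as higher, against 3.68% of all genes, and 1 as lower, against 3.6%. These were Csf1 (adjusted p = 0.00171), Il1a (adjusted p = 0.00739), Lif (adjusted p = 0.0103) and, as the lower one, Il34 (adjusted p = 0.0382). Il6 (adjusted p = 0.14), Il11 (0.239) and Il33 (0.37) did not pass. The 4 calls were lost when the trend was fitted over all 41345 rows of the table, with adjusted p = 0.0747 for Csf1, 0.125 for Il1a, 0.126 for Lif and 0.216 for Il34, and 0.744% of genes called. With control replicate 1 left out, the trend fit called none of the 4 (adjusted p from 0.0556 for Csf1 to 0.361 for Il34), where 1.52% of genes were called. With control replicate 2 left out it called Csf1 only (adjusted p = 0.0355, 1.8% of genes called). With decitabine replicate 1 left out it called all 4 and Il11 (adjusted p = 0.0262, 7.24% of genes called), and with decitabine replicate 2 left out Il1a, Lif and Csf1 (4.56% of genes called). Among genes above the median level, fitted without a trend, 4 members remained to be tested, and of these Lif (adjusted p = 0.0153), Csf1 (0.0238) and Il34 (0.0384) passed, where 5.73% of genes were called higher and 5.55% lower.

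**Figure D3:**
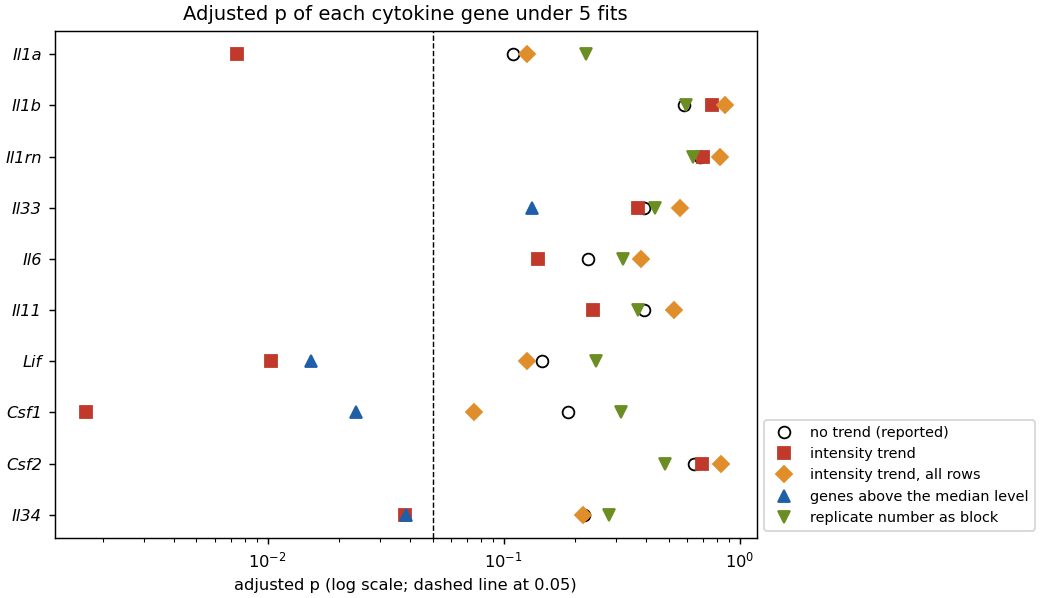
The adjusted p of each cytokine gene (horizontal log axis, dashed line at 0.05) is plotted under 5 limma fits, one symbol per fit. Il1a, Lif, Csf1 and Il34 lie left of the line with an intensity trend, and no gene does in the fit without a trend, with the trend over all rows or with the replicate number as a block.

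None of the receptor genes measured for these ligands passed in the fit without a trend. The receptor genes of interleukin-33 and interleukin-11, Il1rl1 and Il11ra1, had no row with that single symbol and were not analysed here. Il1r1, the signalling receptor of interleukin-1, differed by 0.09 ± 0.09 on the log2 scale, and its partner Il1rap by 0.33 ± 0.12 (limma adjusted p = 0.327). The decoy receptor gene Il1r2 was at −0.19 ± 0.15. Of 16 measured genes for interleukin-1 family receptors and their proximal signalling, none passed, and the median was 0.04. At a nominal p under 0.05, 4 were higher and 0 lower, against 7.34% and 6.97% of all genes. Those 4 were Irak2 (0.41 ± 0.10), the inhibitory kinase-like gene Irak3 (0.34 ± 0.11), Il1rap and Il18r1 (0.33 ± 0.12). Of 14 genes for processing and release, none passed and 2 were higher at that p, against the same 7.34% of all genes. These were the non-canonical inflammasome caspase gene Casp4 (0.44 ± 0.10) and the calpain gene Capn2 (0.35 ± 0.10). Both passed with the trend (adjusted p = 0.00466 and 0.00452), which called 3.68% of all genes as higher. Calpains cleave the interleukin-1 alpha precursor. The inflammasome genes Pycard and Nlrp3 were at −0.20 ± 0.10 and −0.23 ± 0.14, and Casp1, the gene of the enzyme that cleaves interleukin-1 beta and picked out after seeing its value, was at 0.01 ± 0.10.

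On the interleukin-6 side, Il6ra, the ligand-binding receptor, had the largest difference. It read 6.42 and 5.87 in control cells and 6.82 and 7.00 with decitabine, so that the groups did not overlap but the control arrays were 0.55 apart. Its log2 fold change was 0.77 ± 0.21 (limma adjusted p = 0.232, and adjusted p = 0.0183 with the trend). The receptor gene Osmr (0.39 ± 0.11) and the kinase gene Jak2 (0.48 ± 0.12) also differed more than their arrays spread, with adjusted p = 0.234 and 0.206 without the trend and 0.00613 and 0.0092 with it. The shared chain Il6st was at 0.19 ± 0.10, Jak1 at 0.22 ± 0.10 and Lifr at −0.05 ± 0.12. The list held 13 genes, none of which passed in that fit. At a nominal p under 0.05, 3 were higher and 0 lower, against 7.34% and 6.97% of all genes, and the list median was 0.14.

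Of 12 genes for the receptors and signalling of the colony-stimulating factors and interleukin-34, none passed, and the median was 0.13. At a nominal p under 0.05, 1 was higher and 0 lower, against 7.34% and 6.97% of all genes, so 1 is about what that share gives. The 1 was Ptprz1, a receptor phosphatase that also binds interleukin-34. It read 3.44 and 3.43 in control cells and 4.30 and 3.89 with decitabine (0.66 ± 0.16, limma adjusted p = 0.207). Ptprz1 lay at the 24.2th percentile of level, and no background level could be set. Csf1r was at 0.25 ± 0.13, Csf2ra at −0.04 ± 0.13, Csf2rb at 0.47 ± 0.20 and the proteoglycan gene Sdc1 at 0.23 ± 0.10.

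Of 15 further ligands and binding proteins of the 3 families that were measured, none passed, and the median was 0.01. At a nominal p under 0.05, 1 was higher and 0 lower, against 7.34% and 6.97% of all genes, so 1 is about what that share gives. Il3, the neighbour of Csf2, was at 0.33 ± 0.12, Clcf1 at 0.29 ± 0.14, Il18 at −0.21 ± 0.12 and Il27 at 0.16 ± 0.14. Il3 lay at the 18.0th percentile of level, and no background level could be set. Osm, a gp130 cytokine gene next to Lif, was at 0.01 ± 0.12 and Csf3, the gene of the granulocyte factor, at 0.01 ± 0.14, both picked out after seeing their values.

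Of the lists compared here, genes known to respond to interleukin-1 or interleukin-6 were the only one with a called gene in the fit without a trend. Of 24 measured genes, 4 rose over all genes tested, against 0.131% of all genes, and 0 fell, against 0.0135%, with a list median of 0.15. The list was chosen with earlier results of these data known, so it is no independent evidence of a direction. The cyclooxygenase gene Ptgs2 rose from 6.87 and 6.56 to 8.72 and 8.63 (1.95 ± 0.14, limma adjusted p = 0.0417), and the siderophore-binding gene Lcn2 from 5.72 and 5.56 to 7.49 and 7.34 (1.77 ± 0.12, adjusted p = 0.0401). The chemokine genes Ccl2 (1.73 ± 0.14) and Cxcl1 (1.22 ± 0.10) rose too, both with a limma adjusted p of 0.0442. Of these 4, Ccl2 and Cxcl1 were lost with robust eBayes (adjusted p = 0.0527 and 0.0519), and all 4 with the replicate number as a block (adjusted p from 0.106 to 0.145), with all rows tested (0.313 to 0.33) and without any 1 of the 4 arrays (adjusted p from 0.143 to 0.566). With the intensity trend all 4 passed (adjusted p from 5.21e-06 to 4.34e-05), as they did with the trend over all rows (0.0163 to 0.0214) and with the trend and any 1 array left out (the largest was 0.0106, for Cxcl1 without control replicate 2). The trend fit called 10 of the 24 as higher and 0 as lower, against 3.68% and 3.6% of all genes. At a nominal p under 0.05, 10 of the list were higher, against 7.34% of all genes. At that p 1, the transcription factor gene Cebpd, was lower (−0.32), against 6.97%. Among targets usually placed downstream of STAT3, picked out after seeing their values, Socs3 was at −0.16 ± 0.10, Bcl3 at −0.11 ± 0.14 and Pim1 at 0.09 ± 0.11. In the same list Lcn2 and Saa3 (0.34 ± 0.10) were among the higher genes at a nominal p under 0.05, and Cebpd was the lower one. The picked genes therefore do not measure STAT3 output.

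Of 10 genes that control the decay of cytokine transcripts, none passed, and the median was 0.03. At a nominal p under 0.05, 1 was higher and 0 lower, against 7.34% and 6.97% of all genes, so 1 is about what that share gives. The 1 was Arid5a, whose product stabilises Il6 mRNA. It read 5.67 and 5.46 in control cells and 6.48 and 6.30 with decitabine, with a gap wider than the distance within either group (0.83 ± 0.13, limma adjusted p = 0.125, and 0.0041 with the trend). With the trend Zfp36l1, which encodes an mRNA decay factor, passed as lower (−0.19 ± 0.09 and adjusted p = 0.441 without the trend, 0.0376 with it). Rc3h2 was at 0.17 ± 0.10 and Khsrp at −0.16 ± 0.10.

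**Figure D4:**
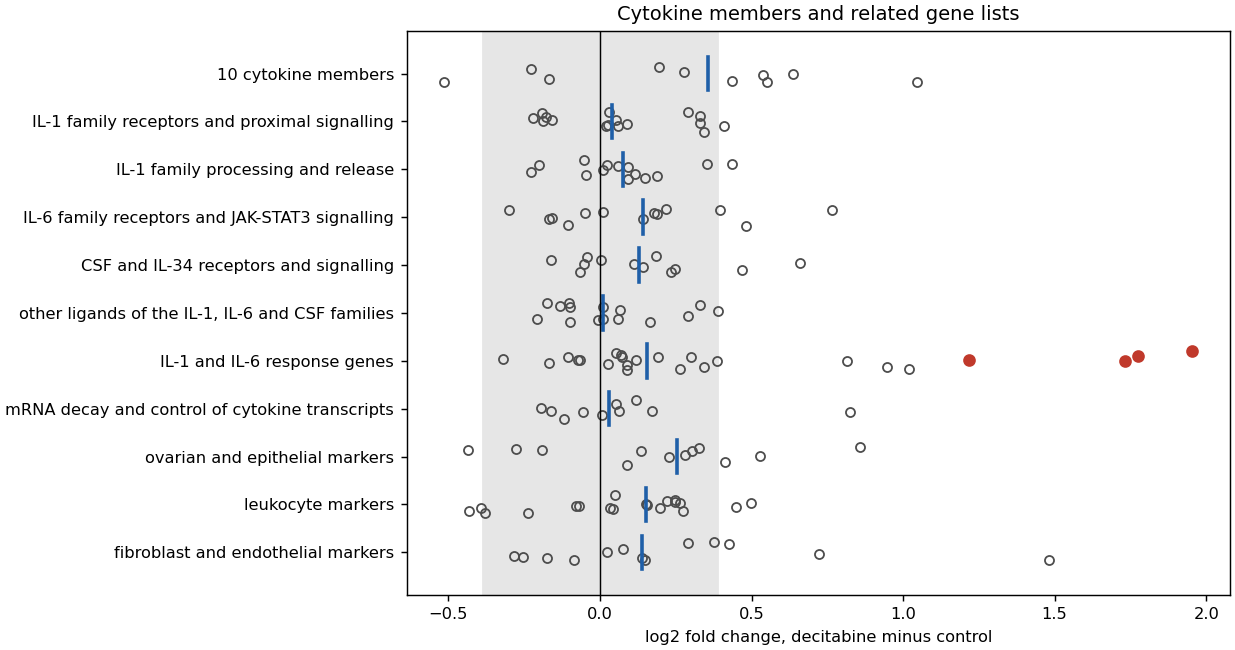
Each circle is 1 gene, placed by its log2 fold change (decitabine minus control) in the row of its list, with red filled circles for genes past the test without a trend and blue bars for list medians. The grey band holds the middle of all genes, from the 5th percentile at −0.39 to the 95th at 0.39, and the 4 filled circles all lie among the response genes.

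The genes whose values over the 4 arrays lay nearest to those of Il1a, by the sum of squared differences after centring each gene on its own mean, were the plasminogen activator gene Plau, the cystine transporter gene Slc7a11 and the synaptotagmin gene Syt12. Their log2 fold changes were 0.98 ± 0.14, 0.97 ± 0.17 and 0.97 ± 0.14. Nearest to Lif were Slc25a45 (0.63 ± 0.11), Clec4a3 (0.60 ± 0.12) and Foxb1 (0.60 ± 0.13). None of these 6 passed in limma without the trend (adjusted p from 0.106 to 0.18).

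Markers of leukocytes, of fibroblasts and endothelium, and of ovarian and epithelial cells, the tissue of the line itself, were read on the same arrays. Several of them passed in the trend fit, the fit that called Csf1, Il1a, Lif and Il34. That fit called 3.68% of all genes as higher and 3.6% as lower. Of 19 leukocyte markers none passed in the fit without a trend, and their median was 0.15. At a nominal p under 0.05, 2 were higher (Itgam, 0.50 ± 0.11, and Cd68, 0.45 ± 0.10) and 0 lower, against 7.34% and 6.97% of all genes. With the trend Cd68 passed (adjusted p = 0.0216). The summed level of the leukocyte list, as log2 of the sum of linear values, was 8.76 to 8.84 in control cells and 8.95 to 9.01 with decitabine. Its brightest row, Cd68 (group means 6.60 and 7.05), weighs most in that sum. The pan-leukocyte gene Ptprc read 3.01 to 3.24, at the 14.7th percentile of level, and Tyrobp and Cd8a were at 0.27 ± 0.11 and 0.26 ± 0.12. Of the 19 leukocyte markers 13 were positive and 6 negative. The negative ones included S100a8 (−0.43 ± 0.27), Fcgr3 (−0.39 ± 0.21) and Ly6g (−0.38 ± 0.20). Itgam lay at the 21.3th percentile of level. Of 13 fibroblast and endothelial markers none passed, and the median was 0.14. At a nominal p under 0.05, 4 were higher and 1 lower, against 7.34% and 6.97% of all genes. Thy1 was at 1.48 ± 0.17, Acta2 at 0.72 ± 0.10, Kdr at 0.38 ± 0.12 and Cdh5 at 0.43 ± 0.14, while Pdgfra, the lower one, was at −0.28 ± 0.10 and Col3a1 at −0.25 ± 0.11. With the trend Acta2 (adjusted p = 3.54e-05) and Thy1 (0.000239) passed as higher and Pdgfra (0.00976) as lower. Acta2, Thy1 and Pdgfra lay at the 99.7th, 61.2th and 99.1th percentile of level. The summed level of the list was 13.41 to 13.45 and 13.58 to 13.60. The bright genes Dcn (group means 11.76 and 11.79) and Acta2 (11.19 and 11.91) weigh most in it. Of these Acta2 was higher, while Dcn was nearly level (0.02 ± 0.10). Of the 13 markers 9 were positive and 4 negative, so the sum is not a measure of the list as a set. Of 12 ovarian and epithelial markers none passed, and the median was 0.25. At a nominal p under 0.05, 5 were higher and 1 lower, against 7.34% and 6.97% of all genes. Their summed level was 12.83 to 12.85 and 12.75 to 12.77, and the bright genes Upk3b and Wt1, both lower, weigh most in it. Msln was at 0.86 ± 0.10, Krt8 at 0.53 ± 0.13, Krt18 at 0.33 ± 0.09, Lgals7 at 0.41 ± 0.14 and Krt19 at 0.28 ± 0.11. Lgals7 was in the list as fitted but not among the markers named in the design. Wt1 and Upk3b were at −0.28 ± 0.10 and −0.19 ± 0.10, and Muc16 at −0.43 ± 0.18. With the trend Msln, Krt8, Krt18 and Krt19 passed as higher (adjusted p from 0.000466 to 0.0494) and Wt1 (0.0106) and Upk3b (0.0254) as lower. Wt1, Upk3b, Krt18 and Krt19 lay above the 89th percentile of level, while Epcam and Pax8 lay at the 42.5th and 20.6th. The part of any of these markers in the cytokine values was not tested.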

How the data were processed

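Expression was measured in 4 samples of BR5FVB1-Akt cells, 2 control and 2 decitabine. Per the labels, RNA was column-purified, biotin-labelled with a whole-transcript kit and hybridised to Affymetrix Mouse Gene 2.0 ST arrays. The deposited table gives 1 value per probe row and array, read here as log2 expression, from 0.55 to 13.26. The log base, summarisation, background correction and scaling are not given in the sources used here, and other log bases would give other folds. Array medians over 41345 rows were 4.60 to 4.66. Across genes, which are not independent, Pearson's r was 0.995 between control arrays and 0.993 between decitabine arrays. The number of arrays limits the precision.

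Of the rows, 23521 carried 1 symbol. The highest-mean row per gene was kept, and limma 3.58.1 in R 4.3.3 (lmFit, eBayes, no trend, two-sided) was fitted over all 22180 genes, with Benjamini-Hochberg adjustment. The members and lists were chosen with earlier results of these data known. Named genes were the members, their receptors, the 4 of each list with the smallest p and any that passed, and the 3 genes nearest in pattern to 2 members. Outside this rule, Ptprc, Col3a1, Wt1, Krt19, Upk3b, Muc16, Epcam, Pax8, Pdgfra, Casp1, Socs3, Bcl3, Cebpd, Pim1, Saa3, Osm, Csf3 and the chromosomal neighbours were named after their values were seen. So were S100a8, Fcgr3, Ly6g and Dcn. Of listed symbols, 4 were matched through older names (Il1f5, Il1f6, Il1f8 and Il1f9). Alternatives covered normalization, level filters, variance model, replicate block, rows per gene and arrays left out, and the trend fits over all rows or without an array were chosen after seeing the data. The fit was tested on simulated data. Figures used Python 3.11.15 and matplotlib 3.10.9. Same-numbered arrays of the 2 groups did not deviate together (r = −0.02 across genes), so they were not treated as pairs.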

Additional observations from a re-analysis of the deposited data

How the results depend on the processing

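Over the alternatives without an added trend, the number of members past the threshold stayed 0 except among genes above the median level (2 higher, 1 lower, of the 4 members tested there) and with the intensity trend (3 higher, 1 lower). With the trend and 1 array left out it ranged from 0 to 4 higher and 0 to 1 lower. The count at a nominal p under 0.05 was 3 to 5 higher, and for lower ones 0 to 1 without an array, 0 without control replicate 1. The members' median log2 fold change was 0.36, 0.33 with centred arrays, 0.44 above the 25th percentile of level and 0.27 to 0.41 with an array left out (0.27, 0.31 and 0.41 without decitabine replicate 1, decitabine replicate 2 and control replicate 1). The groups lay apart for 6 members above and 2 below. Among genes above the 25th percentile these were 5 and 1, and above the median level 3 and 1, since fewer members were tested. With an array left out they were 6 to 7 above (7 without control replicate 1) and 2 to 3 below (2 only without decitabine replicate 1). Groups of 1 array against 2 part more readily, and the share of all genes that did so was not computed. These counts therefore do not show that the separation is stable. Of the members, only Il1rn changed sign, with values from −0.035 to 0.42 when an array was left out, with or without the trend (−0.035 without control replicate 2). Among receptors, Lifr then ranged from −0.16 to 0.059 (0.015 without control replicate 1, 0.059 without decitabine replicate 2) and Csf2ra from −0.17 to 0.082 (the latter without decitabine replicate 1). The cause of the trend's extra calls was not tested. With the replicate number as a block, no gene passed (0 higher and 0 lower), and Il1a had an adjusted p of 0.223. The arrays share only a number, so a call lost there is not a weaker effect. Scanner backgrounds were not used here, so the dim rows of Il1b, Csf2, Il6 and Il11 have no detection limit. The same holds for Il1a, whose control mean of 3.84 lay near the 25th percentile of gene levels (3.82).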

Other observations

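The coding genes next to these cytokine genes in the order of RefSeq build GRCm38.p6 were read from the same limma fit without a trend. Il1a lies between Ckap2l, a spindle protein gene at 0.27 ± 0.13 (log2 fold change ± SE, 2 arrays per group), and Il1b. Slc20a1, on the far side of Ckap2l, was at 0.63 ± 0.10, and F830045P16Rik, on the far side of Il1b, at 0.39 ± 0.12. Il34 lies between Mtss2, a membrane and actin adaptor gene at −0.40 ± 0.11, and the splicing factor gene Sf3b3 at −0.02 ± 0.10. Lif lies between Osm and the meiosis gene Hormad2, which was at 0.32 ± 0.10. The measured neighbour of Csf1, Ahcyl1, was at −0.08 ± 0.10. The next genes out around Lif, Castor1 and Mtmr3, were at 0.05 ± 0.10 and −0.01 ± 0.11. Around Il34 they were Vac14 (−0.12 ± 0.11) and Cog4 (−0.07 ± 0.11). None of the neighbours named in this paragraph passed in limma, with adjusted p from 0.126 for Slc20a1 to 0.988 for Mtmr3. Of these, Slc20a1, Mtss2, Hormad2 and F830045P16Rik had a nominal p under 0.05 (0.00147, 0.0125, 0.0203 and 0.0215). Mtss2 was lower and the others higher, against 6.97% of all genes lower and 7.34% higher at that p. Neighbours of the other members are not listed in this paragraph.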
